A study of Mus musculus with 12 samples.

Results

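Alpha and beta tubulins are the paired building blocks of microtubules, and spermatids use them for 2 structures: the manchette, a transient skirt of microtubules that shapes the elongating nucleus, and the axoneme, the permanent microtubule core of the sperm tail. Mammals encode each tubulin by several genes, the isotypes, whose products differ mainly at the carboxy-terminal tail that lies on the outside of the microtubule and receives modifications such as removal of a terminal tyrosine, polyglutamylation and polyglycylation. The mRNAs of alpha and beta tubulins are also known to be destabilised when free tubulin is in excess, through recognition of the first amino acids of the nascent chain.

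The genes described here are 10 tubulins: Tuba1a, Tuba1b, Tuba1c, Tuba3a, Tuba3b, Tuba4a and Tuba8, which encode alpha tubulins, and Tubb4b, Tubb5 and Tubb3, which encode beta tubulins. Members were all contigs (annotated transcripts to which reads were assigned) of the count table whose gene symbol was one of these names, which gave 10 contigs of 9 genes among 12114 contigs. Tubb3, the beta tubulin used as a neuronal marker, had no contig in the table and was not analysed here. Tuba4a had 2 contigs and every other gene had 1.

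The libraries were nanopore direct RNA sequencing of poly(A) RNA from round spermatids (RS) and elongated spermatids (ES), sorted from the testes of adult mice by DNA content and light scatter. Mice were either wild type for Tent5c (wt/wt), the gene of a non-canonical poly(A) polymerase, or homozygous for a catalytically dead knock-in allele carried in all tissues (dcat/dcat). The 4 groups were RS wt/wt, RS dcat/dcat, ES wt/wt and ES dcat/dcat, each with 3 libraries, and each library pooled the RNA of 3 mice, so that mice within a pool cannot be told apart. In this technique 1 read is 1 RNA molecule. Assigned reads per library ranged from 337287 to 1359427, and levels are given as CPM, the counts of a contig per unit of 1e+06 assigned reads after TMM scaling, which assumes that most contigs do not change.

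The sorted cells carried the marker RNAs of their labels, and some markers of somatic testis cells, at higher summed levels in ES. The summed level of 8 elongated spermatid markers was 19994 to 42798 CPM in the RS wt/wt libraries and 215198 to 284327 CPM in ES wt/wt, while the 7 round spermatid markers went from 2329 to 2412 CPM down to 1437 to 1476 CPM. Of the 10 contigs of these 7, 1 rose, 4 fell and 5 did not pass the test described below in wt/wt (50% called beside 40.3% of all contigs). Of 16 meiotic markers, 12 had a contig, and their sum overlapped between stages, at 1325 to 1450 CPM in RS wt/wt and 1276 to 1371 CPM in ES wt/wt. Single contigs moved both ways: of 23 tested, 6 rose, 5 fell and 12 did not pass in wt/wt (47.8% called beside 40.3% of all contigs). Of 12 Leydig cell markers, 7 had a contig (the defining Star, Hsd3b1, Hsd3b6, Hsd17b3 and Lhcgr had none), and their sum was 69.0 to 129 CPM in the RS wt/wt libraries, 73.4 to 105 CPM in RS dcat/dcat, 486 to 929 CPM in the ES wt/wt libraries and 289.8 to 1069 CPM in ES dcat/dcat. Of 14 Sertoli cell markers, 6 had a contig (Sox9, Wt1, Amh, Fshr, Gata4, Rhox5, Inhba and Inhbb had none), and their sum was 39.0 to 54.4 CPM in the RS wt/wt libraries, 17.1 to 59.0 CPM in RS dcat/dcat, 241 to 445 CPM in the ES wt/wt libraries and 364 to 499 CPM in ES dcat/dcat. Of 6 macrophage markers only C1qb had a contig, at 4.15 to 8.28 CPM in the RS wt/wt libraries and 35.3 to 62.8 CPM in ES wt/wt, and no marker of peritubular myoid or endothelial cells had one.

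The coding 3′ ends show what separates the isotypes, in the part of the protein that carries most modifications. The last 45 sense bases before the stop codon are given for the leading contig, that with most reads, of 7 genes, with the final codon in capitals (from the GENCODE vM21 transcripts of GRCm38).
Tuba3a: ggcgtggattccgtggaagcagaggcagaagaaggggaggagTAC
Tuba3b: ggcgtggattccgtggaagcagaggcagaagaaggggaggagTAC
Tuba1c: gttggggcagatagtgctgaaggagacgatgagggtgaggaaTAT
Tuba8: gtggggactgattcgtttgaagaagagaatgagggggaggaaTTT
Tuba4a: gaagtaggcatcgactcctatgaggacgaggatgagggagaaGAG
Tubb4b: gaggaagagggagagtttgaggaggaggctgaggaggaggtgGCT
Tubb5: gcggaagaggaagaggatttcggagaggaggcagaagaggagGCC

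The ends of Tuba3a and Tuba3b were identical over these 45 bases. Tuba1c and Tuba8 differed from each other at 13 bases and Tubb4b and Tubb5 at 16. Tuba3a, Tuba3b and Tuba1c end on a tyrosine codon (TAC or TAT), the residue that the detyrosination cycle removes and restores. Tuba4a ends on a glutamate codon (GAG), so that its product is made without that tyrosine, and Tuba8 ends on a phenylalanine codon (TTT). The first coding bases, which encode the residues read in tubulin autoregulation, were atgCGTGAGTGC in Tuba1a, Tuba1b and Tuba1c, atgCGTGAGTGT in Tuba3a and Tuba3b, atgCGCGAGTGC in Tuba4a and atgAGGGAATGC in Tuba8, against atgAGGGAGATC in Tubb4b and atgAGGGAAATC in Tubb5 (capitals mark the bases after the start codon).

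Near-identical genes bear on how reads were assigned. Coding identity was 97.0% between Tuba3a and Tuba3b and 97.6% to 98.4% within Tuba1a, Tuba1b and Tuba1c, whereas all other pairs of alpha tubulin genes lay between 80.3% and 85.5%. Tubb4b and Tubb5 shared 82.4% of their aligned coding bases, and alpha against beta pairs shared 56.3% to 59.3%. Tuba3a and Tuba3b differed at 41 of 1353 coding bases, with no identical stretch longer than 155 coding bases, and their last 300 transcript bases were 96.9% identical. Tuba1a and Tuba1b differed at 23 of 1356 coding bases, but the last 300 bases of their transcripts, where a direct RNA read begins, were only 71.9% identical. The 60 coding bases with most differences within each pair follow, with the differing bases in capitals (coding positions 313 to 372 of Tuba3a and Tuba3b, and 640 to 699 of Tuba1a and Tuba1b, counted from the start codon).
Tuba3a: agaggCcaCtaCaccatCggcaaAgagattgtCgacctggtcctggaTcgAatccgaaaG
Tuba3b: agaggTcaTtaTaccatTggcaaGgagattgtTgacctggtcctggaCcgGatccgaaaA
Tuba1a: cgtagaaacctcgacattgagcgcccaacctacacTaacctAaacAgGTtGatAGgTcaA
Tuba1b: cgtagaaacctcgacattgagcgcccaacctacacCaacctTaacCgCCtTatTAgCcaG

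The pair Tuba3a and Tuba3b held 9 differences in their window, and Tuba1a and Tuba1b held 10. Of the 31-base words in each leading transcript, the share also found in transcripts of other genes was 77.0% for Tuba1a, 75.4% for Tuba1b, 63.9% for Tuba1c, 64.6% for Tubb4b, 48.4% for Tuba3a and 42.9% for Tuba3b. For Tubb4b those words were mostly in the pseudogenes Tubb4b-ps1 and Tubb4b-ps2, which had no contig in the table. The share was 3.77% for the leading contig of Tuba4a, 1.93% for Tuba8 and 4.43% for Tubb5. How far reads of one copy were assigned to another was not tested, and values of Tuba1a, Tuba1b, Tuba1c, Tuba3a, Tuba3b and Tubb4b are uncertain to that extent.

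**Figure D1:**
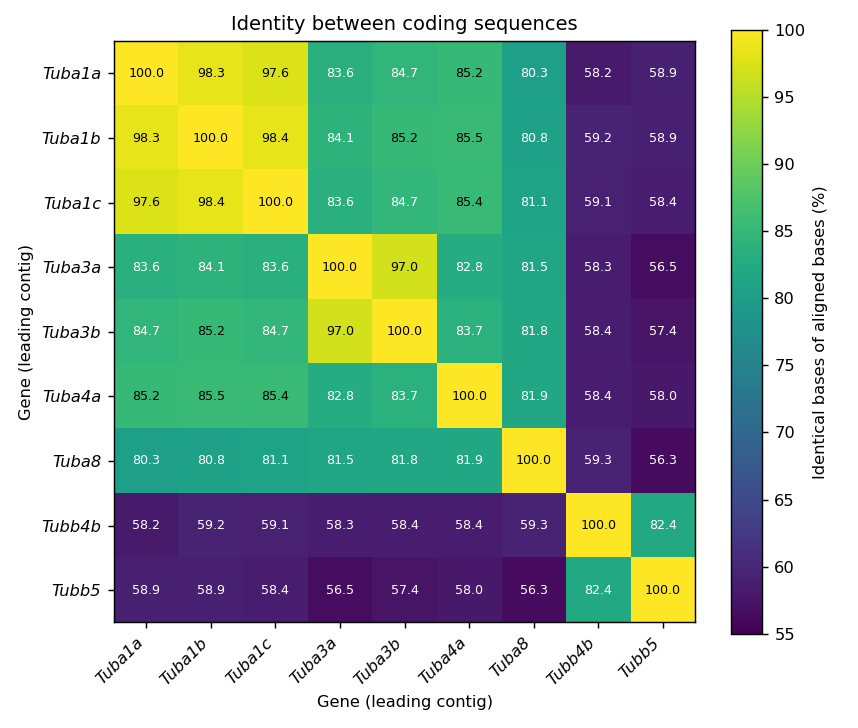
Percentage of identical bases among aligned coding bases for each pair of leading contigs; both axes list the 9 genes and colour runs from 55% to 100%. Tuba1a, Tuba1b and Tuba1c form one near-identical block (97.6% to 98.4%), Tuba3a and Tuba3b another (97.0%), and the beta tubulins stand apart from all alpha tubulins at 56.3% to 59.3%.

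The genes lie on 5 chromosomes (GRCm38). Tuba1a (ENSMUST00000097014, chromosome 15, positions 98949837 to 98953703), Tuba1b (ENSMUST00000077577, 98931425 to 98934565) and Tuba1c (ENSMUST00000058914, 99029891 to 99038110) are neighbours on chromosome 15. Tuba3a (ENSMUST00000088246, 125278274 to 125286042), Tuba3b (ENSMUST00000087445, 145615757 to 145621479) and Tuba8 (ENSMUST00000032233, 121210696 to 121226854) are on chromosome 6, where the near-identical Tuba3a and Tuba3b are far apart. The leading contig of Tuba4a (ENSMUST00000186213, 75214228 to 75219294) is on chromosome 1, Tubb4b (ENSMUST00000043584, 25222160 to 25224702) on chromosome 2 and Tubb5 (ENSMUST00000001566, 35833921 to 35838306) on chromosome 17. All are spliced, protein-coding transcripts of 4 or 5 exons, and transcript lengths ran from 1509 bases for Tuba3a to 2840 bases for the leading contig of Tuba4a. The other contig of Tuba4a (ENSMUST00000079464) shares a run of 1994 bases with the leading one.

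In round spermatids 3 genes gave nearly all tubulin reads. Per kilobase of transcript, RS wt/wt had 1398 ± 161 CPM per kb of Tuba3b, 1222 ± 120 of Tuba3a and 1001 ± 40.2 of Tubb4b (mean ± SD, n = 3), followed after a wide gap by Tuba8 at 36.2 ± 8.26, Tuba4a at 24.7 ± 6.64, Tuba1c at 17.0 ± 4.24 and Tuba1b at 13.1 ± 1.0002 CPM per kb. Tuba1a (1.54 ± 1.37) and Tubb5 (0.778 ± 0.526) stood at the bottom. On this scale neighbours overlapped between libraries for Tuba3b and Tuba3a, Tuba8 and Tuba4a, and Tuba4a and Tuba1c. Tuba1c also overlapped Tuba1b, and Tuba1a overlapped Tubb5. As 1 read is 1 RNA molecule here, CPM without division by length is closer to a count of molecules. Division by length lowers long transcripts such as Tuba4a. In CPM without it, the means kept this order. Tuba3b (2164 to 2722 CPM) then lay above Tuba3a (1640 to 1987 CPM), and Tuba4a (44.9 to 77.5 CPM) above Tuba1c (24.1 to 39.3 CPM). Tuba3a then overlapped Tubb4b (1553 to 1673 CPM). Tuba8 and Tuba4a, Tuba1c and Tuba1b, and Tuba1a and Tubb5 overlapped on both scales, so their order is not settled by 3 libraries.

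In elongated spermatids Tubb4b came first. On the same scale ES wt/wt had 1400 ± 241 CPM per kb of Tubb4b, 649 ± 70.3 of Tuba3b, 589 ± 121 of Tuba3a, 198 ± 41.3 of Tuba4a, 149 ± 18.6 of Tuba8, 112 ± 19.4 of Tuba1c, 23.1 ± 6.097 of Tuba1b, 17.8 ± 13.1 of Tuba1a and 4.30 ± 0.913 of Tubb5 (mean ± SD, n = 3). Only Tuba3b with Tuba3a, Tuba4a with Tuba8, and Tuba1b with Tuba1a overlapped among neighbours on this scale. In CPM without division by length the order of means was the same. Only Tuba1b with Tuba1a, and Tuba1a with Tubb5, then overlapped among neighbours. The dcat/dcat libraries gave the same order of means in each stage. In RS dcat/dcat, Tuba3b with Tuba3a, Tuba3a with Tubb4b, and Tuba8 with Tuba4a overlapped on both scales. So did Tuba1c with Tuba1b, and Tuba1a with Tubb5. In ES dcat/dcat, Tuba1b with Tuba1a did. By CPM, 2 genes changed place within their group without RS dcat/dcat replicate 2, ES wt/wt replicate 1 or ES dcat/dcat replicate 2.

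**Figure D2:**
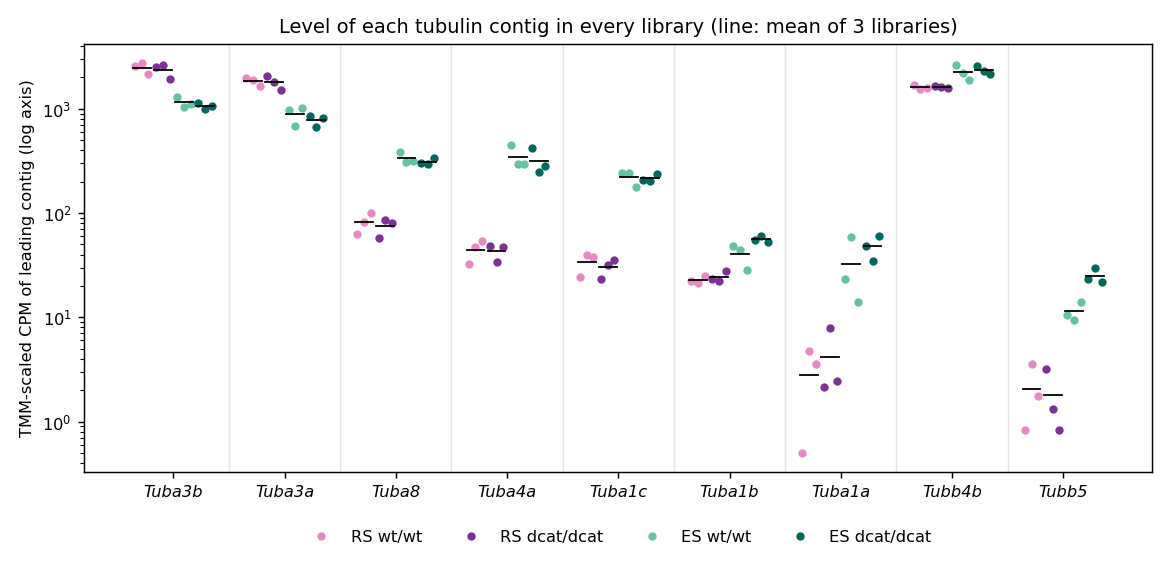
Level of the leading contig of each gene in every library, as TMM-scaled CPM on a log axis; colours are the 4 groups, each point is a library and each line the mean of 3 libraries (a library with no read is drawn at 0.5 CPM, which applies to Tuba1a in RS wt/wt replicate 1). Tuba3b and Tuba3a are the only genes whose ES points lie below their RS points.

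The first comparison asked how tubulin RNA accumulation changes as RS become ES, a transition during which transcription ceases. In bulk samples, fewer cells of a type and less RNA per cell cannot be told apart. In wt/wt, Tuba3a and Tuba3b, the abundant alpha tubulins of spermatids, fell 2.15-fold (Tuba3b) and 2.08-fold (Tuba3a). Tuba4a, Tuba8, Tuba1c, Tuba1b, Tuba1a, Tubb5 and Tubb4b rose, by between 1.399-fold (Tubb4b) and 12.04-fold (Tuba1a). All 10 contigs passed the test (edgeR quasi-likelihood, q at or under 0.05 after Benjamini-Hochberg adjustment over 11831 contigs), 8 higher and 2 lower, where 40.3% of all contigs passed, 23.8% higher and 16.5% lower. The RS and ES libraries did not overlap for any of the 10 contigs, which held for 53.3% of all contigs. Tuba1a had 10 or more reads in ES libraries only, and Tubb5 only in those of ES dcat/dcat, so both entered the test through groups where they were high. With the 6 wt/wt libraries alone, 9 contigs were tested and Tubb5 was not among them.

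Tuba3b, with 18736 reads over the 12 libraries the most abundant member, had 2557, 2722 and 2164 CPM in the 3 RS wt/wt libraries and 1289, 1044 and 1123 CPM in the ES wt/wt libraries. Each ES library was below each RS library, and the gene fell by 1.11 on the log2 scale (SE 0.16, adjusted p = 6.67e-05, edgeR). Tuba3a had 1987, 1907 and 1640 CPM in the RS wt/wt libraries and 966, 681 and 1021 CPM in ES wt/wt, and fell by 1.06 (SE 0.18, adjusted p = 0.000325, edgeR). With the reads of Tuba3a and Tuba3b summed, so that assignment between them no longer matters, the log2 change was -1.08.

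Tuba4a, the alpha tubulin encoded without a terminal tyrosine, rose most among the members with over 1000 reads. Its leading contig had 32.4, 47.7 and 53.8 CPM in the RS wt/wt libraries and 452, 293 and 293 CPM in ES wt/wt, a log2 change of 2.95 (SE 0.28, adjusted p = 2.45e-06, edgeR), or 7.73-fold. The other contig went from 12.5, 20.3 and 23.7 CPM to 120, 257 and 98.9 CPM, a log2 change of 3.08 (SE 0.46, adjusted p = 0.000107, edgeR). The leading contig held 69.5% to 72.2% of Tuba4a reads in the RS wt/wt libraries and 79.0%, 53.3% and 74.8% in ES wt/wt replicates 1, 2 and 3 (95% Wilson intervals, which cover counting error only, 73.7% to 83.4%, 47.5% to 59.0% and 65.96% to 81.9%). In dcat/dcat it held 78.9%, 45.6% and 56.4% in the RS libraries and 80.1%, 57.9% and 54.7% in the ES libraries, so that low shares occurred in both stages and the stages overlapped.

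Tuba8, a divergent alpha tubulin known from testis, muscle and brain, had 63.1, 82.2 and 101 CPM in RS wt/wt against 387, 310.1 and 318 CPM in ES wt/wt. The rise of 2.04 (SE 0.22, adjusted p = 5.29e-06, edgeR) on the log2 scale was 4.11-fold. Tuba1c, a broadly expressed alpha tubulin, went from 24.1, 39.3 and 37.8 CPM to 243, 243 and 177 CPM, a log2 change of 2.72 (SE 0.24, adjusted p = 1.87e-06, edgeR) or 6.58-fold. For both genes the lowest ES library lay far above the highest RS library.

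Tuba1a and Tuba1b, near-identical alpha tubulins common in somatic and dividing cells, had few reads. Tuba1a had 0, 4 and 6 reads in the RS wt/wt libraries and 11, 31 and 4 reads in the ES wt/wt libraries, or 0, 4.77 and 3.55 CPM against 23.2, 59.0 and 14.1 CPM. Its log2 change was 3.59 (SE 0.68), and 2.88 without ES wt/wt replicate 2, which held most of its ES reads. Tuba1a passed the filter on low counts only through ES libraries, where it was high, so its values are a description. The ratio of its summed reads, scaled for depth, was 13.4 with a 95% exact counting interval of 6.67 to 29.8. Tuba1b had 22.4, 21.4 and 24.8 CPM in the RS wt/wt libraries and 48.6, 43.8 and 28.3 CPM in ES wt/wt. Its log2 change of 0.83 (SE 0.26, adjusted p = 0.0208, edgeR) was the smallest among the alpha tubulins, and its adjusted p rose to 0.0507, 0.0577, 0.0733 and 0.0583 (edgeR) without RS wt/wt replicate 1, RS wt/wt replicate 2, ES wt/wt replicate 1 and ES wt/wt replicate 2. With total counts alone its log2 change was 0.11 (adjusted p = 0.718, edgeR). With Tuba1a, Tuba1b and Tuba1c summed, the log2 change in wt/wt was 2.31.

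Tubb4b, the beta tubulin of ciliary and flagellar axonemes, was the only abundant beta tubulin. It had 1673, 1553 and 1575 CPM in the RS wt/wt libraries and 2637, 2205 and 1868 CPM in ES wt/wt, a log2 change of 0.48 (SE 0.14, adjusted p = 0.0133, edgeR) or 1.399-fold. The direction depended on the scaling: with libraries scaled by total counts alone, which moves the median of all contigs by -0.71, the log2 change of Tubb4b was -0.24. Its adjusted p was 0.0631 (edgeR) without ES wt/wt replicate 1.

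Tubb5, a widely expressed beta tubulin of dividing cells, had 1, 3 and 3 reads in the RS wt/wt libraries and 5, 5 and 4 reads in the ES wt/wt libraries. Scaled, this was 0.831, 3.57 and 1.77 CPM against 10.6, 9.51 and 14.1 CPM. The ratio was 5.82 with a 95% exact counting interval of 2.1998 to 17.1, and the log2 change 2.44 (SE 0.58). Tubb5 passed the filter on low counts only through ES dcat/dcat, so its values are a description. Leydig, Sertoli and macrophage marker sums, and Uchl1 (the spermatogonial marker with a contig, of 7 listed), were also higher in every ES library than in every RS library; Uchl1 lay at 3.32 to 8.34 CPM in the RS wt/wt libraries and at 17.7 to 38.0 CPM in those of ES wt/wt. Their part in the rise of Tuba1a, Tuba1b, Tuba1c and Tubb5 was not tested.

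The dcat/dcat libraries showed the same directions. All 10 contigs passed, 8 higher and 2 lower in ES, beside 41.0% of all contigs (24.0% higher, 16.9% lower). No RS library overlapped an ES library for any of the 10, beside 50.9% of all contigs. Among the 8 were Tuba1a and Tubb5, which entered the test only through ES libraries, where they were high. Tuba3b had 2516, 2658 and 1920 CPM in RS dcat/dcat and 1143, 1001 and 1067 CPM in ES dcat/dcat, and fell by 1.14 (SE 0.16, adjusted p = 5.31e-05, edgeR). Tuba3a had 2085, 1799 and 1529 CPM against 860.2, 664 and 810.5 CPM, and fell by 1.21 (SE 0.18, adjusted p = 0.000109, edgeR). Both genes were again lower in each ES library than in each RS library.

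Among the alpha tubulins that rose in dcat/dcat, the leading contig of Tuba4a went from 48.1, 34.1 and 47.0 CPM to 419.7, 247 and 285 CPM (log2 change 2.87) and its other contig from 12.8, 40.6 and 36.3 CPM to 104, 179.8 and 236 CPM (log2 change 2.54). Tuba8 went from 57.7, 86.5 and 80.8 CPM to 301, 295 and 338 CPM (log2 change 2.05), and Tuba1c from 23.5, 31.5 and 35.4 CPM to 209, 202 and 238 CPM (log2 change 2.83). Tuba1b went from 23.5, 22.3 and 28.0 CPM to 55.6, 59.9 and 52.3 CPM (log2 change 1.17, and with total counts alone 0.50, adjusted p = 0.0979, edgeR), and Tuba1a from 2.14, 7.87 and 2.47 CPM to 48.7, 35.0 and 60.8 CPM (log2 change 3.61, and 4.29 without RS dcat/dcat replicate 2). None of these ranges overlapped between the stages.

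Of the beta tubulins in dcat/dcat, Tubb4b went from 1648, 1619 and 1599 CPM to 2601, 2309 and 2163 CPM (log2 change 0.54, SE 0.14, adjusted p = 0.00692, edgeR), and -0.14 with total counts alone. Tubb5 went from 3, 1 and 1 reads to 10, 12 and 13 reads, which was 3.21, 1.31 and 0.824 CPM against 23.2, 30.0 and 21.9 CPM. Its ratio was 14.3 with a 95% exact counting interval of 5.58 to 46.8, and its log2 change was 3.72, or 4.399 without RS dcat/dcat replicate 1. Tubb5 had at most 3 reads in any RS library and entered the test through ES dcat/dcat alone.

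**Figure D3:**
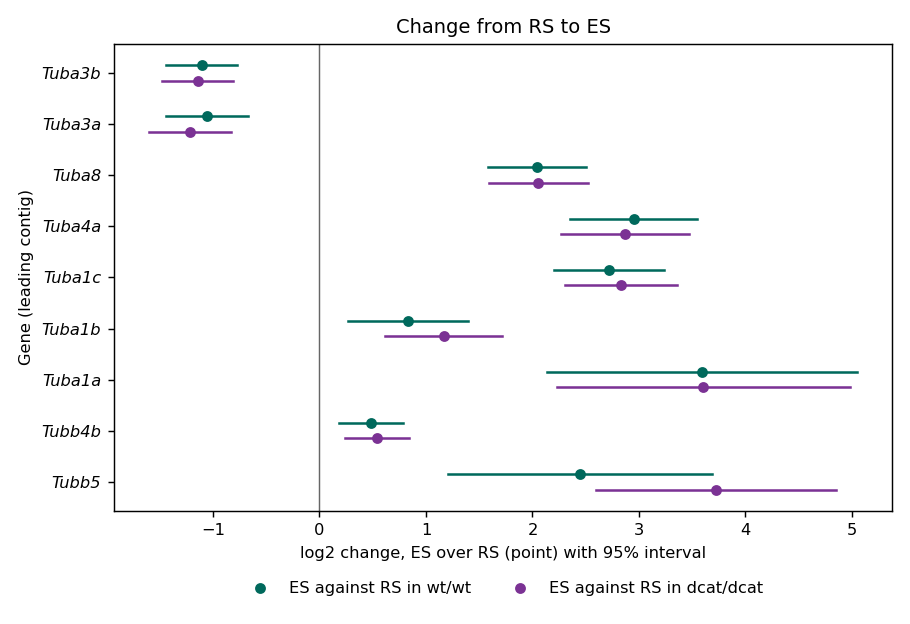
Log2 change from RS to ES of the leading contig of each gene (points, with 95% intervals from the edgeR fit), in wt/wt (green) and dcat/dcat (purple); filled points passed the test. Tuba3b and Tuba3a lie left of 0 at -1.06 to -1.21, Tubb4b close to 0 at 0.48 and 0.54, and the remaining genes between 0.83 and 3.72.

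These changes altered the make-up of the alpha tubulin reads. In RS, Tuba3a and Tuba3b together gave 96.7%, 95.5% and 94.0% of the alpha tubulin reads in wt/wt (5470 of 5656, 3884 of 4065 and 6432 of 6845 reads) and 96.5%, 95.2% and 93.8% in dcat/dcat. In ES they gave 63.9%, 58.9% and 69.8% in wt/wt (95% Wilson intervals 61.6% to 66.2%, 56.4% to 61.3% and 66.6% to 72.7%) and 63.8%, 62.05% and 60.8% in dcat/dcat. The Wilson intervals cover counting error only. Every ES library was below every RS library, and the genotypes overlapped in ES. Within the pair, Tuba3b made up 54.7% ± 1.39 and Tuba3a 40.7% ± 1.48 of alpha tubulin reads in RS wt/wt, and 36.2% ± 0.527 and 27.9% ± 5.02 in ES wt/wt (mean ± SD, n = 3).

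Tuba4a, Tuba8 and Tuba1c made up most of the remaining alpha tubulin reads in ES. Tuba4a (both contigs) went from 1.42% ± 0.480 of alpha tubulin reads in RS wt/wt to 15.9% ± 3.01 in ES wt/wt, Tuba8 from 1.84% ± 0.583 to 10.6% ± 0.310, and Tuba1c from 0.753% ± 0.217 to 6.98% ± 1.28 (mean ± SD, n = 3). In dcat/dcat the ES shares were 16.5% ± 0.519 for Tuba4a, 10.5% ± 0.786 for Tuba8 and 7.30% ± 0.572 for Tuba1c. Tuba1b and Tuba1a stayed small, at 1.26% ± 0.303 and 1.04% ± 0.844 in ES wt/wt, where the Tuba1a share was 0.559% without replicate 2. Tuba4a and Tuba8, whose last codons do not encode tyrosine, each held a larger part of alpha tubulin reads in each ES library than in any RS library. The same was true of Tuba1c, which ends on a tyrosine codon (at most 0.963% in RS, at least 5.75% in ES). It was also true of Tuba1b (at most 0.762%, at least 0.920%) and Tuba1a (at most 0.168%, at least 0.460%).

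Among beta tubulin reads Tubb4b dominated in both stages. Tubb4b gave 97.6% ± 0.237 of them in the RS wt/wt libraries and 96.8% ± 0.597 in ES wt/wt (mean ± SD, n = 3). In dcat/dcat it gave 98.0% ± 0.200 in RS and 96.1% ± 0.778 in ES. Tubb5 gave 0.128% ± 0.0893 in RS wt/wt, 0.512% ± 0.187 in ES wt/wt, 0.107% ± 0.0743 in RS dcat/dcat and 1.02% ± 0.192 in ES dcat/dcat. The rest came from Tubb6, another beta tubulin, with 406 reads over the 12 libraries.

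Summed over the members, alpha tubulin RNA exceeded beta tubulin RNA in every library, by a smaller factor in ES. The alpha sum was 4048 to 4844 CPM in the RS wt/wt libraries and 2931 to 3528 CPM in ES wt/wt, and the beta sum 1556 to 1674 CPM and 1882 to 2647 CPM. The ratio of alpha to beta was 2.81, 3.11 and 2.57 in the RS wt/wt libraries, 2.89, 2.89 and 2.30 in RS dcat/dcat, 1.33, 1.32 and 1.63 in the ES wt/wt libraries and 1.197, 1.15 and 1.41 in ES dcat/dcat. This ratio is formed within a library and does not depend on the scaling. All members together came to 6133 ± 440.2 CPM in the RS wt/wt libraries and 5425 ± 657 CPM in ES wt/wt, with overlapping libraries. The sums themselves depend on the scaling. Per 1e+06 assigned reads without TMM, all members came to 6996 to 8343 in the RS wt/wt libraries against 3883 to 4571 in ES wt/wt, and to 6682 to 8162 against 4002 to 4373 in dcat/dcat, with no overlap. On that scale the beta sum was lower in ES, at 1961 to 2191 against 1580 to 1960 in wt/wt and 2026 to 2099 against 1812 to 1985 in dcat/dcat.

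**Figure D4:**
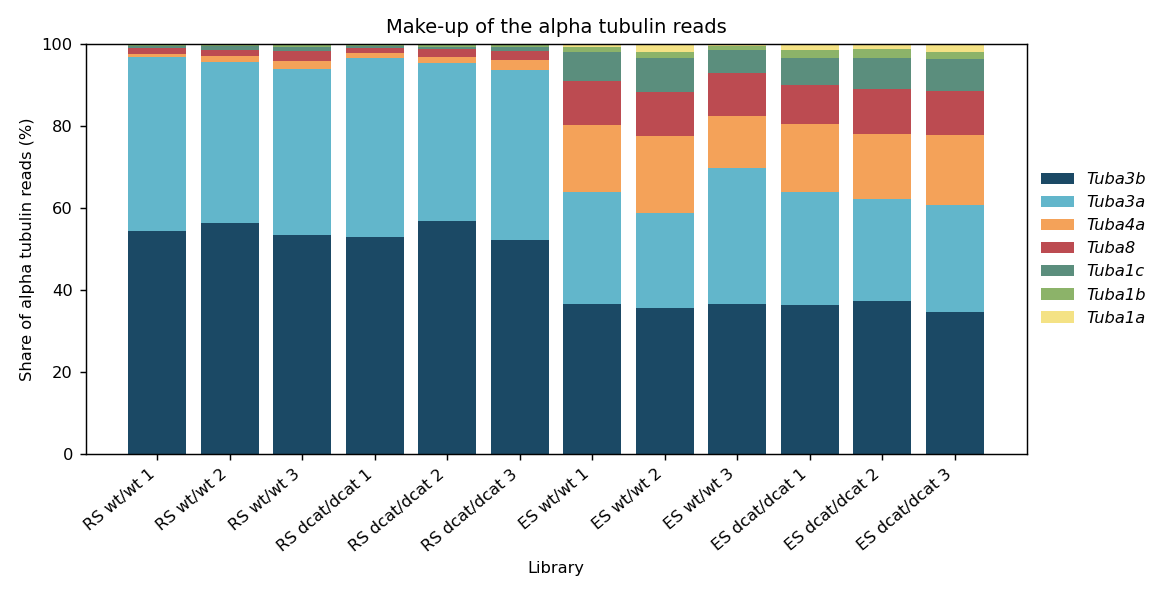
Share of each gene in the alpha tubulin reads of each library, as stacked bars in percent of reads; colours are genes, and Tuba4a is the sum of its contigs. The blue blocks of Tuba3b and Tuba3a fill 93.8% to 96.7% of each RS bar and 58.9% to 69.8% of each ES bar, and Tuba4a, Tuba8 and Tuba1c fill most of the rest.

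The second comparison asked whether loss of TENT5C catalytic activity changed tubulin RNA. No contig of the whole table passed in RS (0% of 11831 contigs, 98 at an unadjusted p under 0.05) or in ES (0%, 356 at an unadjusted p under 0.05) by edgeR, and the tubulins did not pass either. With the replicate number as a block, 3 contigs of the table passed in RS and 1 in ES, none of them a tubulin. In RS the log2 change of the leading contigs lay between -0.15 for Tuba1c and 0.50 for Tuba1a, and the wt/wt and dcat/dcat libraries overlapped for all of them (groups without overlap were 5.31% of all contigs). The 95% intervals of the abundant members were narrow: -0.40 to 0.26 for Tuba3b, -0.41 to 0.34 for Tuba3a and -0.28 to 0.32 for Tubb4b. For Tuba1a (-1.33 to 2.33) and Tubb5 (-1.61 to 1.36), with at most 6 reads in any RS library, a difference of 2-fold either way was not detectable at this depth.

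In ES the log2 change lay between -0.19 for Tuba3a and 1.16 for Tubb5. The intervals were -0.44 to 0.23 for Tuba3b, -0.57 to 0.20 for Tuba3a, -0.67 to 0.42 for Tuba4a, -0.56 to 0.32 for Tuba8, -0.51 to 0.44 for Tuba1c and -0.23 to 0.38 for Tubb4b, so that a change of 2-fold lay outside each of these intervals. Tubb5 and Tuba1b were higher in each dcat/dcat library than in each wt/wt library, where 7.66% of all contigs did not overlap between the groups. Tubb5 entered the test only through ES dcat/dcat, the group where it was higher, so its values are a description. It had 10, 12 and 13 reads in ES dcat/dcat against 5, 5 and 4 in ES wt/wt, and a log2 change of 1.16 (adjusted p = 0.99997, edgeR).

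Tuba1b had 55.6, 59.9 and 52.3 CPM in ES dcat/dcat against 48.6, 43.8 and 28.3 CPM in ES wt/wt, and a log2 change of 0.44 (95% interval -0.13 to 1.002, adjusted p = 0.99997, edgeR). It was 0.25 without ES wt/wt replicate 3. Neither gene passed the test. The Sertoli marker sum, 241 to 445 CPM in the ES wt/wt libraries and 364 to 499 CPM in ES dcat/dcat, overlapped between the genotypes, as did Uchl1 (17.7 to 38.0 CPM and 32.5 to 54.0 CPM), and their part in these values was not tested.

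The interaction asked whether the change from RS to ES differed between genotypes. No contig of the table passed (0% of 11831, 170 at an unadjusted p under 0.05, edgeR), and no tubulin had an unadjusted p under 0.05. The values were 1.28 for Tubb5 (95% interval -0.57 to 3.14), 0.33 for Tuba1b (-0.45 to 1.12), 0.12 for Tuba1c (-0.60 to 0.83), -0.16 for Tuba3a (-0.69 to 0.38), -0.04 for Tuba3b (-0.50 to 0.43) and 0.06 for Tubb4b (-0.37 to 0.48). Tuba8 had 0.015 (-0.61 to 0.64), the leading contig of Tuba4a -0.08 (-0.90 to 0.73) and its other contig -0.54 (-1.87 to 0.80). The interval was widest for Tuba1a, at 0.015 (-4.56 to 4.59). For Tubb5 the change from RS to ES was 2.44 in wt/wt and 3.72 in dcat/dcat, and the test did not separate the genotypes.

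**Figure D5:**
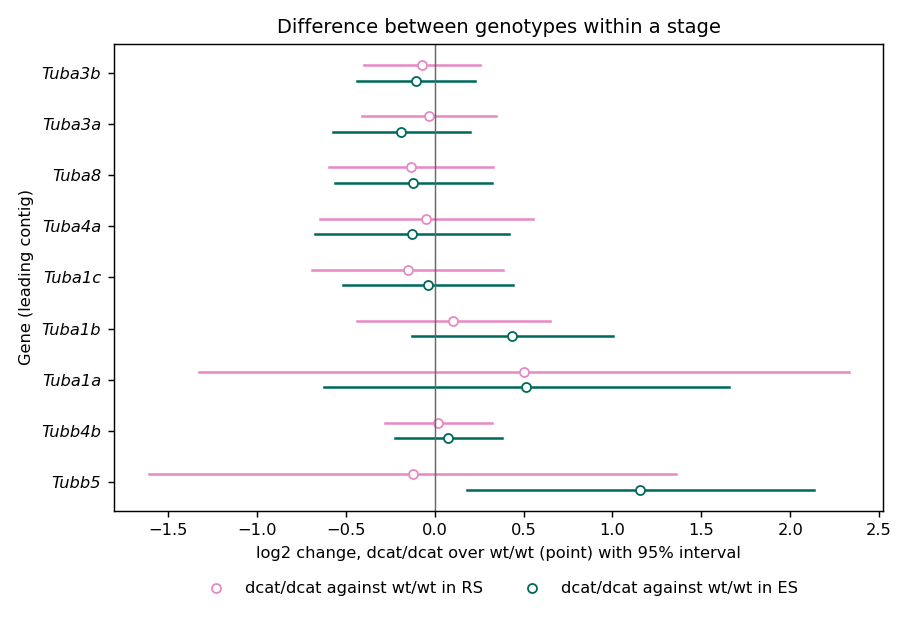
Log2 change from wt/wt to dcat/dcat of the leading contig of each gene within RS (pink) and within ES (green), with 95% intervals from the edgeR fit that are not adjusted for the number of contigs; open points did not pass the test. Every interval spans 0 but that of Tubb5 in ES (0.18 to 2.14), a gene that passed the filter on low counts through ES dcat/dcat only, and the widest belong to Tuba1a and Tubb5, the genes with fewest reads.

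Tubulins are folded and modified by further proteins, whose RNA was examined from lists of genes. Of 27 contigs of tubulin folding factors (the CCT chaperonin, prefoldin and the tubulin-binding cofactors), 2 rose, 10 fell and 15 did not pass in wt/wt. This was 44.4% called (7.41% risen, 37.0% fallen) beside 40.3% of all contigs (23.8% higher, 16.5% lower), with a median log2 change of -0.62 beside -0.24 for all contigs. Those with the smallest adjusted p were the chaperonin subunits Cct4, which went from 565 to 265 mean CPM and fell by 1.09 (SE 0.14, adjusted p = 3.12e-05, edgeR), and Cct3, which went from 397 to 199 mean CPM and fell by 0.99 (SE 0.19), and the prefoldin subunit Pfdn5, which went from 348 to 629 mean CPM and rose by 0.86 (SE 0.18). In dcat/dcat 3 rose, 11 fell and 13 did not pass (51.9% called beside 41.0% of all contigs), with a median of -0.63 beside -0.18.

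Of 56 contigs of tubulin-modifying enzymes, 13 rose, 5 fell and 38 did not pass in wt/wt (median -0.22). In dcat/dcat 13 rose, 7 fell and 36 did not pass (35.7% called beside 41.0% of all contigs, 23.2% risen beside 24.0%). The share that rose in wt/wt, 23.2%, was near that of all contigs (23.8%), and 32.1% were called in all beside 40.3%. The leading ones belong to the tubulin tyrosine ligase-like family, which adds glutamate or glycine chains: a contig of Ttll10 rose from 54.6 to 218 mean CPM (log2 change 2.01, SE 0.24), one of Ttll5 from 4.66 to 46.2 mean CPM (3.16, SE 0.38) and one of Ttll2 from 9.14 to 56.6 mean CPM (2.59, SE 0.32). All 3 had an adjusted p at or under 1.93e-05 (edgeR). Of 24 contigs of severing, end-binding and stathmin proteins, 8 rose, 3 fell and 13 did not pass in wt/wt (45.8% called beside 40.3% of all contigs, 33.3% risen beside 23.8%). In dcat/dcat 7 rose, 5 fell and 12 did not pass (50% called beside 41.0%, 29.2% risen beside 24.0%). A contig of Mapre3, an end-binding protein, rose from 34.2 to 132 mean CPM (1.94, SE 0.23), and contigs of Map7, a microtubule stabiliser, from 16.5 to 79.9 (2.21, SE 0.34) and from 20.0 to 77.1 mean CPM (1.88, SE 0.32).

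Of 11 contigs of gamma, delta and epsilon tubulins and the microtubule-nucleating gamma-tubulin complex, 1 rose, 3 fell and 7 did not pass in wt/wt, or 36.4% called beside 40.3% of all contigs. Contigs of Mzt2, a small subunit of the complex, fell, with log2 changes of -1.32 (SE 0.17) and -2.003 (SE 0.36), and Tubg1, gamma tubulin, rose from 6.37 to 24.2 mean CPM (1.88, SE 0.47, adjusted p = 0.0052, edgeR). In dcat/dcat Tubg1 had a log2 change of 0.92 and did not pass (adjusted p = 0.144, edgeR). There, none of the 11 rose and 2 fell, or 18.2% called beside 41.0% of all contigs. Tubb6 was the only other alpha or beta tubulin gene with a contig, of 6 listed, and rose from 36.6 to 60.1 mean CPM (0.71, SE 0.24, adjusted p = 0.029, edgeR) in wt/wt. None of these contigs passed between the genotypes in RS or in ES, where 0% of all contigs did.

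For the 6 members with at least 500 reads, the contigs most alike in pattern over the 12 libraries (Pearson r of log2 CPM, 3138 contigs compared) mostly follow from the shared difference between RS and ES libraries and are a description. Tuba1c was nearest to Prm3, Oxct2a and Dynll2 (r = 0.998, 0.997 and 0.997), Tuba4a to 1700013G24Rik, Lelp1 and Spatc1 (0.997, 0.996 and 0.996), and Tuba8 to Actrt2, Smim23 and Tssk6 (0.996, 0.994 and 0.994). Among the contigs nearest to Tuba3b were Fsip1 and Cdc20 (0.984 and 0.983), and Tuba3a was nearest to Nop9, Cdca3 and Krcc1 (0.983, 0.983 and 0.983), while the members Tuba3a and Tuba3b correlated with each other at 0.976. Tubb4b, nearest to Crip2, Hspa4l and Pebp4 (0.978, 0.969 and 0.964), correlated at 0.920 with Tuba4a and at -0.836 with Tuba3b.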

How the data were processed

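Per the labels and the methods, the authors mapped direct RNA reads with minimap2 to the mouse transcriptome (mm10), and deposited raw read counts per contig. The submitters' processing notes give minimap2 version 2.20-r1061. The methods describe keeping contigs that reached 10 reads in 2 or more replicates of a condition. Of the 12114 contigs in the count table, 11831 reached this in these libraries. The methods name a later minimap2 version, so the version behind the counts is not settled. They also name a GENCODE release earlier than vM21, from which the sequences compared here were taken. Their DESeq2 tables hold fold changes and adjusted p-values that were not used; only the gene symbol column, deposited beside them, named the contigs (11225 of 12114). The edgeR 4.0.16 quasi-likelihood test (R 4.3.3) was applied to: contigs reaching 10 counts in 2 or more libraries of a group (11831), TMM scaling, 1 mean for each of 4 groups over all 12 libraries, Benjamini-Hochberg over all contigs, q at or under 0.05. The SE was calculated as the absolute log2 change divided by the square root of the F statistic of the same fit. The 95% intervals use this SE and a t quantile, and are approximate for members with few reads. Sequences came from GENCODE vM21 (GRCm38), in which all 10 contigs were found, and were aligned with Biopython. Scripts were tested on data simulated for ES against RS in wt/wt. Of 108 contigs simulated with a 2-fold change 8.33% were recovered, and of 92 with a 4-fold change 65.2%. False calls were 1.43% of calls. Most 2-fold changes thus did not pass the test in the simulation. Named were all members by their leading contig, up to 3 contigs called in ES against RS wt/wt of each related list by smallest q, and the 3 nearest contigs of each member with at least 500 counts; 1 of these contigs and the coding ends of 2 genes are not reported here. Members and lists were chosen with earlier results of these data known. Same-numbered libraries deviated together (r over 3242 contigs) between genotypes in RS (0.633 to 0.860) and between stages in dcat/dcat (0.495 to 0.680), but not for number 3 between stages in wt/wt (-0.287) or between genotypes in ES (0.044). The methods state that RS and ES came from the same mice and that each sorting session held a mouse of each genotype. Groups therefore share mice or sessions, though which libraries share them is not stated in the sources used here, and the p-values, fitted without a block, measure the spread between pools. Alternatives were another normalization, DESeq2 1.42.0, other filters, contigs or paralogs summed, a replicate block and each library left out.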

Additional observations from a re-analysis of the deposited data

How the results depend on the processing

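Of the called changes from RS to ES, the signs held under each alternative except that of Tubb4b, which was -0.24 (wt/wt) and -0.14 (dcat/dcat) with total counts alone. That scaling moved the median of all contigs by -0.71 and -0.66, turned the share of risen among called contigs from 59.0% to 26.5% in wt/wt and from 58.7% to 28.2% in dcat/dcat, and left Tuba1b uncalled (0.11 and 0.50). Requiring 10 counts in all libraries, 6 of 7 member contigs were called in each genotype and Tubb4b was not (0.16 and 0.26). With TMM recomputed on those 3719 contigs, all of them moved down together, by a median of -0.32 in wt/wt and -0.28 in dcat/dcat. With the replicate block 10 contigs were called in each stage comparison and 0 in the others, so no member call changed, while calls over the whole table went from 0 to 3 between genotypes in RS and from 0 to 1 in ES. DESeq2 also called 10, 10, 0, 0 and 0. Each count of 10 includes Tuba1a and Tubb5, which passed the filter only through ES libraries, where they were high. Summing Tuba1a, Tuba1b and Tuba1c replaced their separate values by 2.31 and 2.44.

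The share of Tuba3a and Tuba3b in alpha tubulin reads was 71.1% in ES wt/wt and 69.1% in ES dcat/dcat per kilobase, and 66.1% in ES dcat/dcat with leading contigs only. Uncalled values near 0 changed sign. With paralogs summed, the genotype difference in RS of Tuba1a and Tuba1b was -0.0096 and that of Tuba1c in ES 0.12; the latter was 0.0085 with total counts and 0.0065 when 10 counts were required in all libraries. Tuba4a summed by gene was 0.21 in RS. The interaction was -0.027 (RLE size factors) and -0.049 (DESeq2) for Tuba1a, 0.0046 (total counts) and 0.0085 (10 counts in all libraries) for Tuba3b, and -0.019 (RLE), -0.015 (DESeq2) and -2.63e-05 (replicate block) for Tuba8.

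Leaving out each library in turn, the difference in RS ranged from -0.19 to 0.89 for Tuba1a, -0.36 to 0.0028 for Tuba1c, -0.14 to 0.086 for Tuba3a, -0.18 to 0.073 for Tuba3b, -0.24 to 0.10 for Tuba4a, -0.30 to 0.026 for Tuba8, -0.018 to 0.044 for Tubb4b and -0.80 to 0.30 for Tubb5. In ES it ranged from -0.19 to 0.022 for Tuba1c, -0.38 to 0.11 for Tuba4a and -0.060 to 0.20 for Tubb4b. The interaction ranged from -0.37 to 0.80 for Tuba1a, -0.041 to 0.31 for Tuba1c, -0.18 to 0.071 for Tuba3b, -0.33 to 0.16 for Tuba4a, -0.15 to 0.18 for Tuba8 and -0.071 to 0.19 for Tubb4b. The cause of these sign changes was not tested. In RS, 3 reads correspond to 1.77 to 3.93 CPM, which limits Tuba1a and Tubb5 there.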
